A study of Mus musculus with 2 samples.

Results

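C1qa, C1qb and C1qc encode the A, B and C chains of complement C1q, and these 3 genes, of the 27999 listed for each library, are described here across the cell classes of mouse lungs with a low or a high burden of mammary carcinoma metastases. The genes were selected on their measured levels in these same libraries, so their levels are given as a description with no test. Female FVB/NJ mice received cells of the mouse mammary carcinoma line Met-1 through the tail vein at 10 weeks of age. The lung of 1 mouse at week 1 after injection gave the low-burden library and the lung of 1 mouse at week 3 gave the high-burden library, both sequenced as single cells in droplets (10x Genomics) under the same batch label. With 1 library per burden, burden, time after injection, mouse and library cannot be told apart, no library without injected cells was analysed, and each interval below is an exact 95% interval that covers counting error only.

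C1q is the recognition unit of the classical complement pathway. It binds antibody on a surface, dying cells and some microbes, and with the proteases C1r and C1s forms the C1 complex, which cleaves C4 and C2. Each C1q molecule is assembled from all of the A, B and C chains, and in most tissues macrophages and related myeloid cells are its source, whereas most other complement proteins of the blood come from the liver. In GENCODE M21 (GRCm38) the genes lie next to one another on the minus strand of chromosome 4 within 18675 bases, and no other annotated gene overlaps this span. C1qb (ENSMUSG00000036905) lies at chr4:136880129-136886187, C1qc (ENSMUSG00000036896) at chr4:136889804-136893065 and C1qa (ENSMUSG00000036887) at chr4:136895917-136898803. Each has an annotated transcript of 3 exons, 3616 bases separate C1qb from C1qc, and 2851 bases separate C1qc from C1qa.

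The bases before the start sites of C1qb and C1qc are shown because the genes of this cluster were detected together in the same cells, as given below. They were taken from RefSeq (GRCm38.p6), are written 5′ to 3′ on the minus strand, and end in C1qb at the base before the start site and in C1qc at the 5′ end of the GENCODE gene, 151 bases further upstream than the RefSeq start. Of the 3 genes, 2 had an entry in the promoter table.
C1qb, chr4:136886201-136886450: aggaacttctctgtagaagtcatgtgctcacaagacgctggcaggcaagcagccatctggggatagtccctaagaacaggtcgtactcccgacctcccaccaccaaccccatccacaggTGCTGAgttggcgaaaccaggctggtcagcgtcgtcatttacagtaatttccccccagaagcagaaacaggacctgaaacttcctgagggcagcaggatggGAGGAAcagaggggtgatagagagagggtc
C1qc, chr4:136893066-136893164: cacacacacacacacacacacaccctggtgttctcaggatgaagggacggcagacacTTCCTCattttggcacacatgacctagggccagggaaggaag
Capitals mark matches, on either strand, to GAGGAA, the core bound by PU.1 (the product of Spi1), and to TGCTGA, a half-site of MAF proteins. Within the 250 bases before the RefSeq start, GAGGAA began 30 bases before the start of C1qb and, on the opposite strand, 193 bases before that of C1qc, and TGCTGA began 131 bases before that of C1qb. GAGGAA occurred in 23.3% and TGCTGA in 16.1% of 32851 RefSeq windows of this length. TGACTCA (the AP-1 site) did not occur in either window and occurred in 4.46% of all windows. The searched motifs do not overlap one another in these windows, and a match is a description of letters, not a measured binding site.

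Cells were grouped by clustering without the 3 genes and named from marker lists that did not hold them, so each class name carries "-like". Of 2668 and 3121 cell barcodes in the files, 2473 low-burden and 3033 high-burden cells remained after filtering, with 13283386 and 51467856 unique molecular identifiers (UMIs, each counting 1 captured transcript) and a median of 4073 and 13998 UMIs per cell. The libraries shared 11 cell barcodes, and 0 of these at week 1 and 2 at week 3 belonged to macrophage-like cells. Doublets were kept, and the doublet caller marked 0.364% and 0.231% of cells, too few for it to have worked in libraries of this size. Macrophage-like cells numbered 50 (2.02% of cells) at week 1 and 815 (26.9%) at week 3, and their clusters carried 11 to 13 of the 16 macrophage markers. Of the 50 low-burden cells, 41 came from a sub-cluster of a cluster whose cells also carried markers of another class, so differences between the libraries in macrophage-like cells are also given without that sub-cluster, which leaves 9 low-burden and 814 high-burden cells.

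C1q transcripts were concentrated in the macrophage-like cells of both libraries. These cells held 77.7% of all C1q UMIs of the low-burden library and 84.6% of those of the high-burden library. Their summed C1q level was 14580 counts per 1000000 UMIs (CPM; 14069 to 15105) at week 1 and 11435 CPM (11365 to 11505) at week 3, from 3073 and 102420 C1q UMIs. Over all cells the sum was 298 CPM at week 1 and 2351 CPM at week 3, a 7.90-fold difference that accompanied the larger share of macrophage-like cells.

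**Figure D1:**
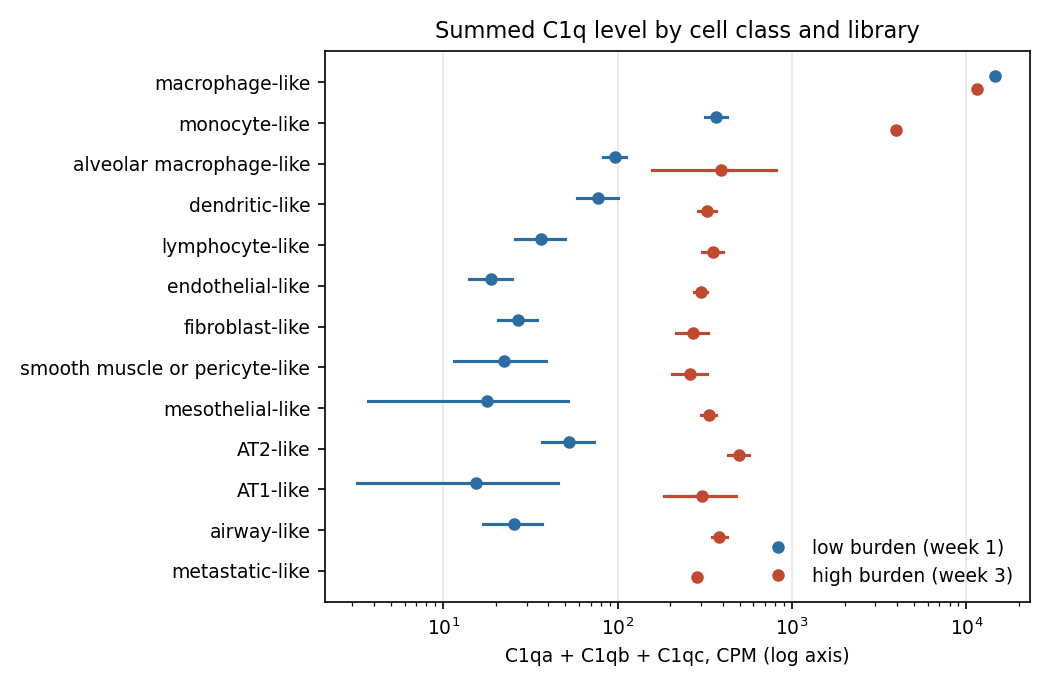
Summed level of C1qa, C1qb and C1qc in CPM (log axis) for each cell class, with blue points for the low-burden and red points for the high-burden library and bars for exact 95% Poisson intervals. Macrophage-like cells lie at 14580 and 11435 CPM, and at high burden every class outside the myeloid cells lies between 261 and 493 CPM.

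With all 50 low-burden macrophage-like cells, C1qa differed most between the libraries. In these cells C1qa, the A chain gene, stood at 6889 CPM at week 1 and 4476 CPM at week 3, a log2 ratio of -0.62 (-0.70 to -0.55). C1qb, the B chain gene, stood at 4047 and 3469 CPM, a log2 ratio of -0.22 (-0.32 to -0.12). C1qc, the C chain gene, stood at 3644 and 3490 CPM, a log2 ratio of -0.06 (-0.17 to 0.04), an interval that includes 0. For the sum the log2 ratio was -0.35 (-0.40 to -0.30).

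None of the 3 genes reached a 2-fold difference between the libraries in these cells. Among all 7123 genes past a filter on low counts, 16.7% were at least 2-fold higher and 12.5% at least 2-fold lower at high burden, with a median log2 ratio of 0.08. The direction of the difference, and which gene differed most, depended on which low-burden cells were taken as macrophage-like. Without the 41 cells of the sub-cluster the low-burden sum was 9136 CPM over 9 cells and its log2 ratio was 0.32 (0.17 to 0.48). C1qa then differed least, with a log2 ratio of 0.0042 (-0.22 to 0.23), beside 0.44 (0.15 to 0.74) for C1qb and 0.73 (0.41 to 1.06) for C1qc. With a gate of at least 3 of 6 macrophage markers in place of clusters, the sums were 7701 CPM at week 1 and 8232 CPM at week 3, a log2 ratio of 0.10, with -0.16 for C1qa, 0.21 for C1qb and 0.38 for C1qc. The gate took a marker as present from 1 UMI without thinning. Which cells pass it therefore depends on depth, at a median of 4073 and 13998 UMIs per cell in the libraries.

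The share of C1qa among the C1q transcripts differed between the libraries under every definition of macrophage-like cells that was tried. Of the summed C1q UMIs of macrophage-like cells, C1qa made up 47.3% (45.5 to 49.0) at week 1 and 39.1% (38.8 to 39.4) at week 3. C1qb made up 27.8% (26.2 to 29.4) and 30.3% (30.1 to 30.6), and C1qc 25% (23.5 to 26.6) and 30.5% (30.2 to 30.8). Across the alternatives, including the gate and the 9 remaining cells, the C1qa share ranged from 46.8% to 48.8% at week 1 and stayed at 39.1% or 39.2% at week 3. In single cells C1qa was the most abundant of the 3 in 44 of 49 low-burden cells with a C1q UMI and in 532 of 813 high-burden cells. These shares compare captured molecules, and capture may differ between the 3 transcripts.

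**Figure D2:**
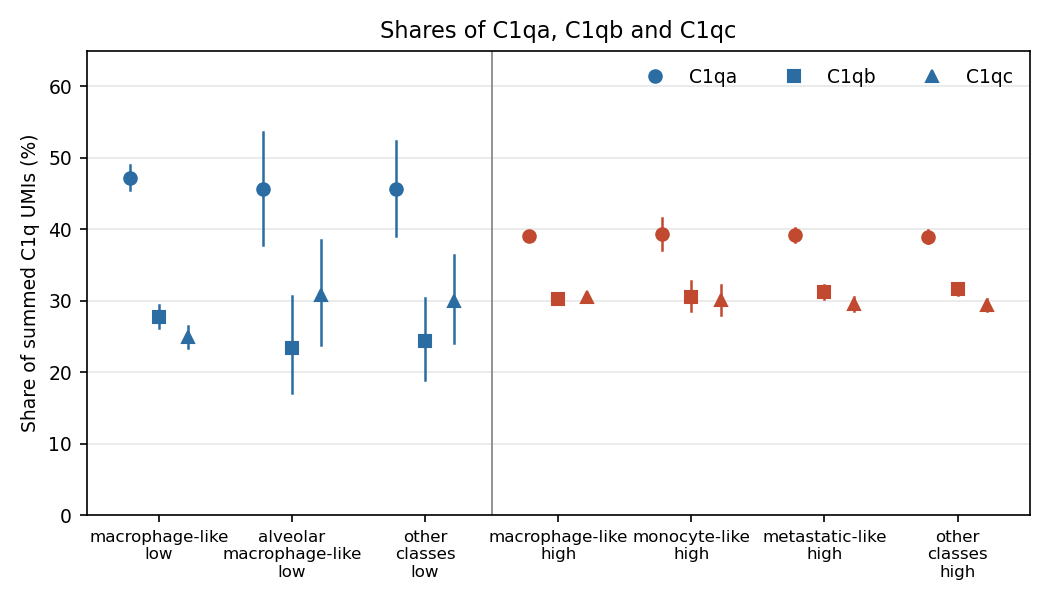
Share of C1qa (circles), C1qb (squares) and C1qc (triangles) among summed C1q UMIs, in percent, for cell classes of the low-burden (blue, left) and high-burden (red, right) library, with exact 95% binomial intervals as bars. In macrophage-like cells C1qa lies at 47.3% (low burden) and 39.1% (high burden), and classes with few C1q UMIs have wide intervals and scatter around these values.

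Pooled over the non-myeloid classes, the C1qa share lay near that of the macrophage-like cells of the same library, while some single classes departed from it. At low burden the other, non-myeloid classes together had a C1qa share of 45.7% (39.1 to 52.3) over 230 UMIs. At high burden their C1qa share was 39.0% (38.1 to 39.9) over 11427 UMIs, with 31.6% C1qb and 29.4% C1qc. The metastatic-like cells, named from markers of the carcinoma, had 39.2% C1qa (38.2 to 40.2) over 9527 UMIs. The intervals of C1qa in these 3 groups include the value of macrophage-like cells of the same library, and at high burden the C1qb share of other classes (30.8 to 32.5) lay just above, and the C1qc share (28.5 to 30.2) just below, that of macrophage-like cells. High-burden mesothelial-like cells departed most among larger counts, with 33.5% C1qa (28.7 to 38.6) and 38.2% C1qb (33.2 to 43.4) over 364 UMIs. High-burden fibroblast-like cells had 20.0% C1qc (12.3 to 29.8) over 90 UMIs. Low-burden monocyte-like cells had 14.4% C1qc (9.74 to 20.3) over 187 UMIs, and the low-burden cells that could not be named had 40.0% C1qa (33.8 to 46.4) and 35.9% C1qb (29.9 to 42.3) over 245 UMIs. Each of these intervals lies outside the share of macrophage-like cells in the same library. They were picked from the shares of all classes, with no allowance for the number compared. At low burden 4 of 122 monocyte-like cells held 87.2% of the C1q UMIs of their class. Of the 148 cells that could not be named, 3 held 93.1%, so the intervals of these 2 groups describe few cells.

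Within the macrophage-like class, C1q levels differed between clusters whose cells overlapped. The main high-burden cluster (677 cells), which carried Ccl12 and the fractalkine receptor gene Cx3cr1, had 12218 CPM (12140 to 12297) and a median of 123 C1q UMIs per 10000 UMIs of a cell. The low-burden sub-cluster (41 cells), with Folr2 (a folate receptor), Pf4 and Apoe, had 15756 CPM (15170 to 16358) and a median of 166 per 10000. A high-burden cluster of 90 cells with the scavenger receptor gene Marco, Retnla and Fcna had 7305 CPM (7133 to 7479). The middle 50% of cells lay between 95.9 and 156 per 10000 in the main cluster and between 46.2 and 103 in the Marco cluster. A cluster with Trem2, Gpnmb and Spp1, genes of lipid-associated macrophages, had 6555 CPM (6314 to 6802) over 47 high-burden cells and 5785 CPM (4788 to 6927) over 5 low-burden cells. C1qa made up 38.8%, 42.5% and 40.9% of C1q UMIs in the 3 high-burden clusters of 677, 90 and 47 cells, and 47.1% and 52.5% in the low-burden groups of 41 and 5 cells. The remaining 4 low-burden cells and 1 high-burden cell fell into clusters made up mostly of the other library.

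**Figure D3:**
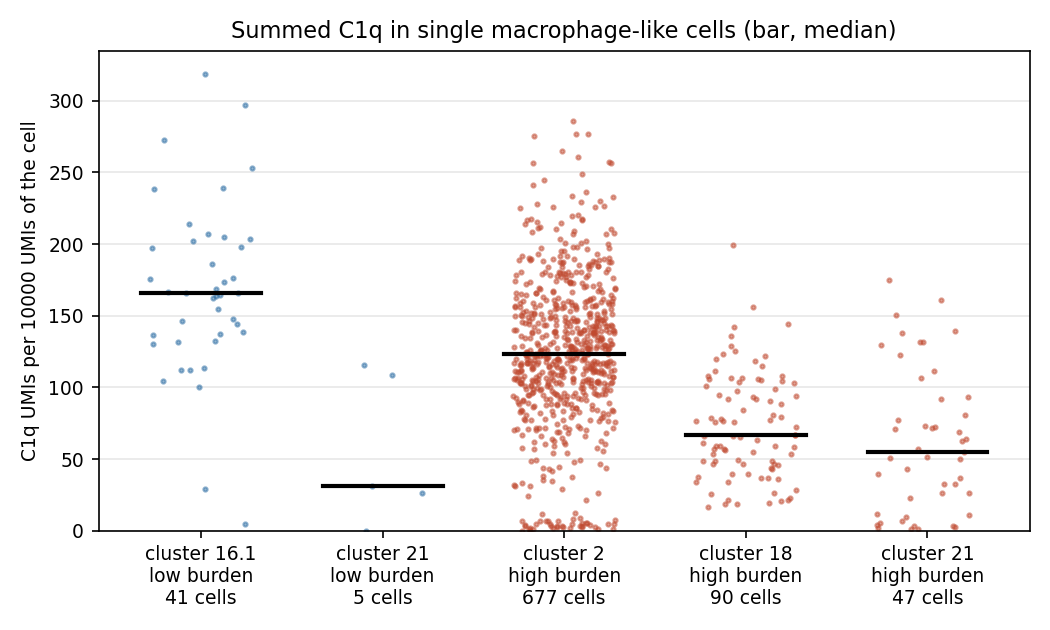
C1q UMIs per 10000 UMIs in each macrophage-like cell, 1 point per cell, by cluster and library (blue, low burden; red, high burden), with black bars for medians. The medians are 166 and 30.9 in the low-burden groups and 123, 66.8 and 54.9 in the high-burden clusters, and every group spans a wide range of cells.

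Single cells ranged from 0 to 319 C1q UMIs per 10000 at week 1 and from 0 to 286 at week 3, with medians of 161 and 117. The middle 50% of cells lay between 115 and 194 at week 1 and between 81.9 and 149 at week 3, so the libraries overlapped broadly. At 20 or more per 10000, a line drawn after the values were seen, were 48 of 50 low-burden and 760 of 815 high-burden macrophage-like cells. At high burden, cells with a UMI of Arg1, which encodes arginase 1, had 9939 CPM (9783 to 10097; 133 cells), and cells without one 11751 CPM (11673 to 11829; 682 cells). Arg1 itself differed between the high-burden clusters, at 63.7 CPM in the main, 334 CPM in the Marco and 138 CPM in the Trem2 cluster. Whether C1q differed with Arg1 within a cluster was not tested. No Arg1 UMI was found in the 50 low-burden cells.

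The 3 genes were detected together in most macrophage-like cells. With all UMIs, 48 of 50 low-burden cells (96.0%, 86.3 to 99.5) and 778 of 815 high-burden cells (95.5%, 93.8 to 96.8) had a UMI of each gene. Depth differed between the libraries, so each cell was also thinned at random to 2000 UMIs, which left out 0 cells. After thinning, 48 of 50 low-burden cells (96.0%) and 735 of 815 high-burden cells (90.2%, 87.9 to 92.1) had all 3. Without the 41 cells it was 8 of 9 low-burden cells (88.9%, 51.8 to 99.7). Independent detection at the same rates per gene would give 90.3% and 84.0%. A single gene of the 3 was found in 1 thinned low-burden and 22 thinned high-burden cells. Across the 815 thinned high-burden cells, which share 1 library and its cell-to-cell differences, Pearson's r was 0.61 for C1qa and C1qb, 0.65 for C1qa and C1qc, and 0.58 for C1qb and C1qc.

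In the non-myeloid classes joint detection was rare at this depth, but not in every other group. All 3 genes were found in 18 of 55 thinned high-burden monocyte-like cells (32.7%, 20.7 to 46.7). Of 180 thinned high-burden cells in clusters that could not be named, 37 had all 3 (20.6%, 14.9 to 27.2). Of 1588 thinned low-burden cells of the non-myeloid classes, 0 had all 3 genes, which allows a share of up to 0.189% if 3 counts of the total are taken as the limit (exact 95% upper bound 0.232%), and 3.34% had any C1q UMI. Of 1876 such high-burden cells 16 had all 3 (0.853%, 0.488 to 1.38), where independent detection would give 0.519%, and 42.8% had any C1q UMI. Without thinning, any C1q UMI was found in 9.38% of these low-burden cells and 96.3% of these high-burden cells, at median depths of 4295 and 19052 UMIs. A C1q UMI alone therefore did not mark a macrophage-like cell in the high-burden library.

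**Figure D4:**
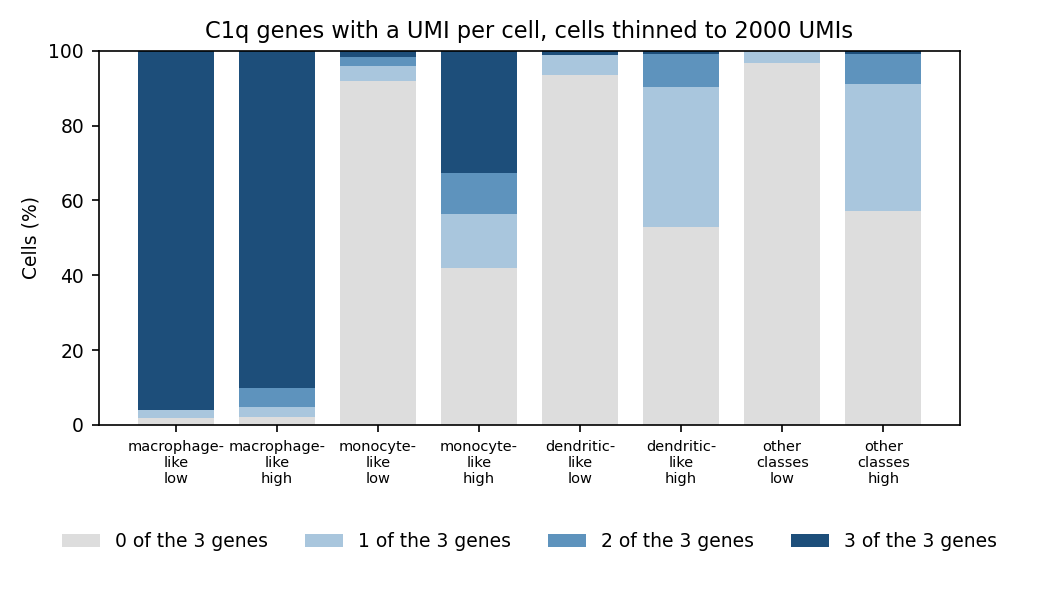
Percent of cells with a UMI of 0, 1, 2 or 3 of the C1q genes (grey to dark blue) after thinning each cell to 2000 UMIs, for cell classes of each library. All 3 genes are found in 96.0% and 90.2% of macrophage-like cells and in 0% and 0.853% of cells of the other, non-myeloid classes.

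In the non-myeloid classes the summed C1q level was low within each library and much higher in the high-burden one. Together these classes had 26.7 CPM (23.3 to 30.3) at week 1 and 293 CPM (288 to 299) at week 3, a log2 ratio of 3.46 (3.27 to 3.65) or 11-fold. These levels were 0.183% and 2.56% of that of macrophage-like cells of the same library. Droplets also capture RNA free in the cell suspension, which gives every cell type a like, low level of the genes of abundant cells. The part of free RNA in these levels was not tested, and expression in these classes is not read from them.

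The levels of the separate classes at high burden lay close together. They ran from 261 CPM (205 to 326) in smooth muscle or pericyte-like and 269 CPM (217 to 331) in fibroblast-like cells, through 286 CPM in metastatic-like, 299 CPM in endothelial-like, 305 CPM in AT1-like (alveolar type I), 332 CPM in mesothelial-like, 352 CPM in lymphocyte-like and 382 CPM in airway-like cells, to 493 CPM (429 to 564) in AT2-like cells (alveolar type II). Neighbours in this order had overlapping intervals except airway-like and AT2-like cells. In AT2-like cells 1 cell held 39.7% of the C1q UMIs, and without cells at 20 or more per 10000 the level was 304 CPM (254 to 361), against 317 CPM in airway-like and 268 CPM in metastatic-like cells. Of the metastatic-like cells, 20 came from a sub-cluster of a mixed cluster and had 1747 CPM (1633 to 1866). They held 884 of the 9527 C1q UMIs of the class, whose main clusters had 261 and 267 CPM.

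At low burden the same classes lay between 15.5 CPM in AT1-like and 52.6 CPM in AT2-like cells. There, 1 AT2-like cell held 82.9% of the 35 C1q UMIs of its class. Only 3 C1q UMIs were counted in each of the AT1-like and mesothelial-like classes. In all of the 8 classes with cells in both libraries the level was higher at high burden, with log2 ratios from 3.23 in AT2-like to 4.30 in AT1-like cells. The cells without any C1q UMI numbered 90.6% at week 1 and 3.68% at week 3, where Poisson counting at 1 common level would give 87.0% and 3.20%.

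Other transcripts, most of them markers of 1 class, were set beside C1q as yardsticks. As a percent of its level over the whole library, the median over the classes was 9.47% at week 1 and 12.8% at week 3 for C1qa, 6.59% and 13.8% for C1qb, and 12.9% and 12.2% for C1qc. Of other macrophage genes, Ms4a7 stood at 11.8% and 13.4% in these classes and Pf4, a chemokine gene, higher at 25% and 17.7%. Sftpc, the AT2 surfactant gene, stood at 7.46% and 27.1% outside AT2-like cells, and Scgb1a1, the club cell secretoglobin gene, at 9.28% and 20.2% outside airway-like cells. The remaining yardsticks were further from C1q in at least 1 library. The B cell gene Cd79a stood at 23.8% and 63.3%, with low library levels of 31.5 and 10.4 CPM. The haemoglobin gene Hbb-bs, for which no source class was set, stood at 36.6% and 56.7%. Chil3, a gene of alveolar macrophages, stood at 9.42% and 123%, and its library level at week 3 was 14.8 CPM. The yardsticks thus did not share 1 value. Whole-library levels of Sftpc and Scgb1a1 were lower at high than at low burden, at 2709 against 12843 CPM and at 7007 against 29239 CPM, the opposite of C1q.

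The other myeloid classes differed in how C1q was spread over their cells. Monocyte-like cells had 368 CPM (317 to 425) at week 1 and 3932 CPM (3757 to 4113) at week 3. At high burden 19 of 55 monocyte-like cells stood at 20 or more per 10000 and held 94.6% of the C1q UMIs of their class, and the rest had 352 CPM (287 to 427). At low burden 4 of 122 held 87.2%, and the rest had 49.8 CPM (31.9 to 74.1). The C1qa share in high-burden monocyte-like cells was 39.3% (37.1 to 41.5). The class thus held cells in the range of macrophage-like cells beside cells near the level of non-myeloid classes, and whether the former were doublets or cells grouped by their other genes was not tested.

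Alveolar macrophage-like cells, the resident phagocytes of the air spaces, carried little C1q. The 471 low-burden cells had 96.1 CPM (81.9 to 112), of which 3 cells held 75.3%. The others had 23.9 CPM (17.1 to 32.6), beside 24.7 CPM (21.5 to 28.3) in the non-myeloid classes without cells at 20 or more per 10000. High-burden cells of this class numbered 3, with 7 C1q UMIs in all. Dendritic-like cells had 77.2 CPM (58.5 to 100) over 94 cells at week 1 and 325 CPM (287 to 367) over 104 cells at week 3, and 1 low-burden cell held 57.9% of its class. At high burden 92 of 104 dendritic-like cells had a C1q UMI and 0 stood at 20 or more per 10000. Clusters that carried markers of more than 1 class and could not be named held a further 6.20% and 4.13% of the C1q UMIs of the libraries.

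The genes whose levels across classes were most like summed C1q were genes of macrophages or of other myeloid cells too. Over the 22 sums by class and library with at least 20 cells, which share libraries and free RNA, Pearson's r of log2(CPM + 10) among 9148 genes was highest for the chemokine gene Ccl12 (0.93), Ms4a7 (0.91) and the scavenger receptor gene Msr1 (0.88). The complement receptor gene C3ar1, Fcrls, Wfdc17, Cxcl2, Cx3cr1, Clec5a and Ccl7 followed at 0.87 to 0.88. For pairs of the 3 members r was 0.98 to 0.99. Ccl12 stood at 536 CPM in low-burden and 1329 CPM in high-burden macrophage-like cells and Ms4a7 at 669 and 407 CPM. Wfdc17 stood at 664 and 1394 CPM in these cells and at 651 and 1038 CPM in monocyte-like cells.

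Among single macrophage-like cells of the high-burden library, C1q varied weakly with other genes. Over 815 cells thinned to 2000 UMIs and 4591 genes, Spearman's rho was highest for Aif1 and Lgmn (both 0.35), followed by Tmsb4x, Ctsc, Cx3cr1, Ms4a7, Apoe, Ctss, H2-DMa and Cd74 at 0.25 to 0.30. It was lowest for Ccl6 (-0.33), Crip1 (-0.30), Smpdl3a (-0.28), Mcemp1 and Gda (both -0.26). In the 50 low-burden cells 8 of the 10 genes with the highest rho also had a positive one, and Ctss (-0.16) and H2-DMa (-0.18) did not. Of the 5 lowest, Crip1 (-0.38) and Gda (-0.26) were negative there too, while Ccl6 (0.07), Smpdl3a (0.09) and Mcemp1 (0.0015) were not. In the 209 cells with the most C1q, Lgmn, which encodes the lysosomal protease legumain, had a mean of 2.76 UMIs per 2000, and in the 210 cells with the least 1.12. Ccl6, a chemokine gene, had 0.84 and 4.68. Depth was equal by thinning, and the part of clusters and of free RNA in these values was not tested.

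The rest of the complement system was followed with lists of 50 genes, of which 49 were in the files and 20 passed the filter in macrophage-like cells. At least 2-fold higher at high burden were 3 of the 20 (15.0%), and at least 2-fold lower were 4 (20.0%), beside 16.7% and 12.5% of all genes tested. The median log2 ratio over the 20 was 0.04. Without the 41 cells 20 listed genes again passed the filter, 2 higher and 9 lower (45.0%), beside 9.5% higher and 33.2% lower of the 5327 genes then tested, whose median log2 ratio was -0.48. Those past 2-fold that are reported here are named with their values in the order of their roles.

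Transcripts of the proteases that act with C1q were highest in other classes. C1ra, C1rb and C1s1, which encode C1r and C1s, and C1s2 were highest in mesothelial-like cells at low burden, where C1ra stood at 631 CPM, and C1ra reached 432 CPM in fibroblast-like cells. In macrophage-like cells C1ra stood at 19.0 CPM at week 1 and 15.7 CPM at week 3, and C1s1 at 4.74 and 3.80 CPM. The next components followed the same classes. C2 stood at 1209 CPM in low-burden and 212 CPM in high-burden mesothelial-like cells, C4b at 1042 and 510 CPM, and C3, the central component, at 3155 and 2306 CPM. In macrophage-like cells C4b stood at 161 and 126 CPM and C3 at 90.1 and 52.9 CPM, and C2 at 0 UMIs at week 1 and 3.68 CPM at week 3. The low-burden mesothelial-like class held 24 cells.

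Macrophage-like cells carried some genes of the alternative pathway and some receptor genes. Cfp, which encodes properdin, was highest in them, at 555 CPM at week 1 and 429 CPM at week 3. Cfb, the factor B gene, stood at 9.49 CPM from 2 UMIs at week 1 and 56.3 CPM at week 3, a log2 ratio of 2.57 (0.71 to 5.62). It was highest in high-burden mesothelial-like cells, at 352 CPM. Cfd, of the same list, had 0 UMIs at week 1 and 1.79 CPM at week 3 in macrophage-like cells and did not pass the filter. Fcna, the ficolin A gene of the lectin pathway, stood at 75.9 and 111 CPM. Of the terminal pathway genes 0 of 7 passed the filter. C5ar1, the receptor for C5a, stood at 555 and 260 CPM, a log2 ratio of -1.09 (-1.36 to -0.81), and C3ar1 at 256 and 130 CPM, a log2 ratio of -0.98 (-1.37 to -0.56). Itgax, a subunit of complement receptor 4, stood at 9.49 CPM from 2 UMIs and 33.8 CPM, a log2 ratio of 1.83 (-0.03 to 4.89). Without the 41 cells the log2 ratio was 0.08 for Cfb, 0.34 for Itgax, -0.17 for C5ar1 and -1.04 for C3ar1, so of these differences only that of C3ar1 kept its size, and its interval then included 0 (-1.92 to 0.03). Those of Cfp (-1.20, -1.67 to -0.70), C3 (-2.01, -3.00 to -0.79) and C4b (-1.94, -2.60 to -1.18) became larger.

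Among inhibitors, Cr1l, a membrane regulator, stood at 94.9 CPM at week 1 and 41.4 CPM at week 3 in macrophage-like cells, a log2 ratio of -1.20 (-1.84 to -0.47). Serping1, which encodes the inhibitor of C1r and C1s, stood at 38.0 and 38.2 CPM in macrophage-like and at 2711 and 2596 CPM in fibroblast-like cells. In the list of proteins reported to bind C1q, C1qbp stood at 52.2 and 156 CPM in macrophage-like cells, a log2 ratio of 1.58 (0.73 to 2.58), and Cd93 at 114 and 39.1 CPM, a log2 ratio of -1.54 (-2.14 to -0.88). Cd93 was highest in endothelial-like cells, at 660 and 669 CPM. Leaving out the 41 cells gave a log2 ratio of -1.37 (-2.73 to 0.52) for Cr1l and 1.55 (-0.31 to 4.59) for C1qbp, from 4 and 2 low-burden UMIs, and Cd93 had 0 low-burden UMIs.

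**Figure D5:**
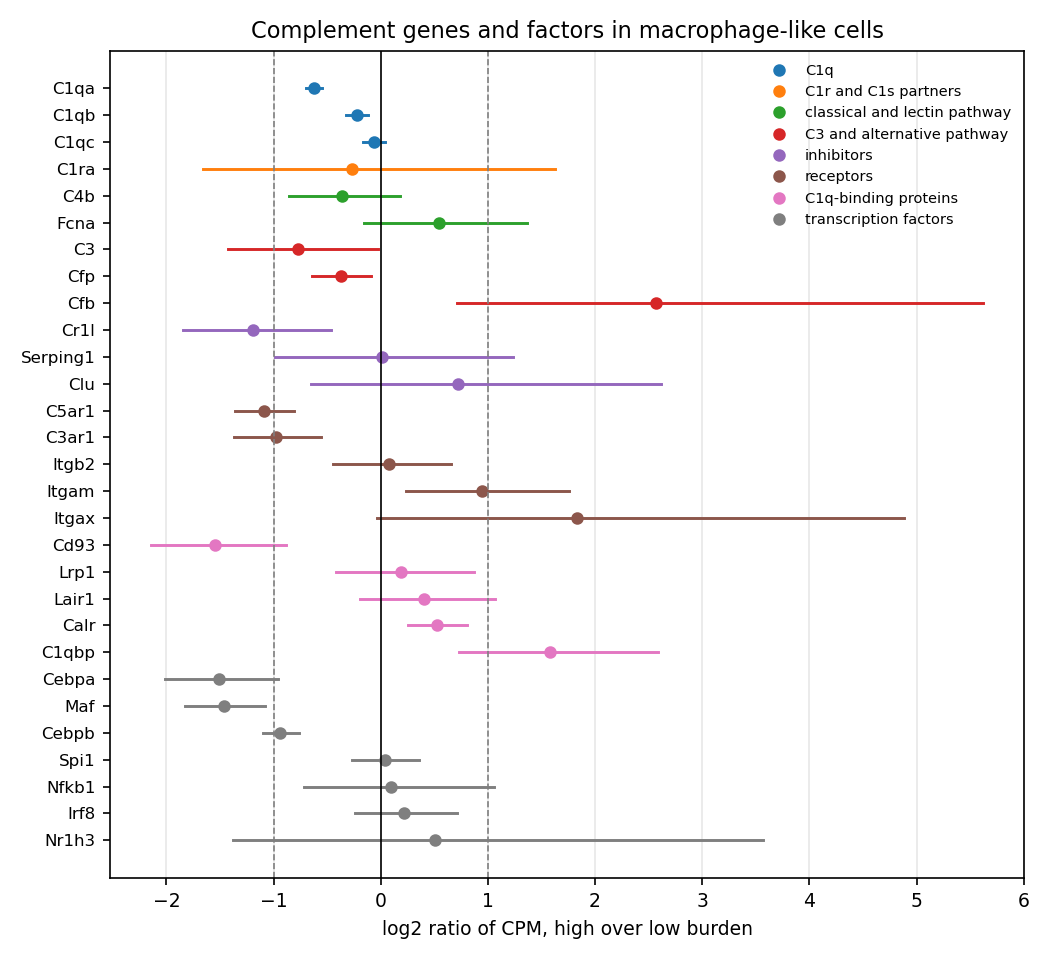
Log2 ratio of CPM, high over low burden, in macrophage-like cells for the C1q genes, listed complement genes and listed transcription factors that passed the filter and are reported here, with exact 95% intervals of the ratio as bars and dashed lines at 2-fold. The C1q genes lie between -0.62 and -0.06, while Cd93 (-1.54) and Cebpa (-1.51) lie furthest to the left.

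Of 8 transcription factors of the macrophage lineage, 3 were at least 2-fold lower and 0 at least 2-fold higher at high burden. Maf stood at 308 CPM at week 1 and 112 CPM at week 3, a log2 ratio of -1.46 (-1.83 to -1.08), and Cebpa at 161 and 56.7 CPM, a log2 ratio of -1.51 (-2.01 to -0.96). Spi1, the PU.1 gene, stood at 413 and 424 CPM, a log2 ratio of 0.04 (-0.27 to 0.36). Of all genes tested, 12.5% were lower and 16.7% higher. With the 41 cells left out, the log2 ratio was -0.74 (-1.79 to 0.58) for Maf and -0.50 (-2.05 to 1.78) for Cebpa. These ratios rest on 7 and 3 low-burden UMIs, and neither was past 2-fold. Of the 8 factors, 2 others were then at least 2-fold lower and 1 at least 2-fold higher. Of the 5327 genes then tested, 33.2% were lower and 9.5% higher.

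Of 20 genes of macrophage state, 16 passed the filter, 9 were at least 2-fold lower at high burden and 2 at least 2-fold higher, beside 12.5% lower and 16.7% higher of all genes tested. Lower were Apoe, at 26982 CPM at week 1 and 6033 CPM at week 3 (log2 ratio -2.16, -2.20 to -2.12), Pf4 (-1.61), Folr2 (-2.83), Mrc1 (-2.08), Retnla (-2.71), Lyve1 (-3.07), Chil3 (-2.82), H2-Aa (-1.19) and H2-Eb1 (-1.71). Spp1, the osteopontin gene, stood at 90.1 and 1706 CPM, a log2 ratio of 4.24 (3.60 to 4.97), and metastatic-like cells had 7430 CPM of it. Arg1 stood at 0 UMIs at week 1 and 95.6 CPM at week 3, at least 6.71-fold higher against a floor of 3 UMIs. Chil3, a gene of alveolar macrophages, stood at 109 and 15.4 CPM in macrophage-like cells. Non-myeloid classes ran from 41.3 to 126 CPM at week 1 and from 6.86 to 32.1 CPM at week 3. The ratios of Chil3, with and without the 41 cells, are therefore not read as a state of macrophage-like cells. Most low-burden macrophage-like cells came from 1 sub-cluster and most high-burden ones from another cluster. When the 41 cells were left out, 18 genes of the list passed the filter, with 9 lower (50.0%) and 2 higher (11.1%). Of the 5327 genes then tested, 33.2% were lower and 9.5% higher. The 2 higher were Spp1 and Cx3cr1, the latter at a log2 ratio of 3.11 (1.25 to 6.15) from 2 low-burden UMIs. Arg1 again had 0 low-burden UMIs, but 3 UMIs then stood for 80.1 CPM, so it was no longer past 2-fold. The log2 ratio was then -1.62 for Apoe, -1.44 for Pf4, -2.50 for Folr2, -1.69 for Mrc1, -3.83 for Retnla, -3.96 for Chil3, -1.95 for H2-Eb1 and 3.41 for Spp1, while H2-Aa stood at -0.59 and Lyve1 at -1.24 from 1 low-burden UMI.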

How the data were processed

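Dissociated lungs of 1 mouse per burden were sequenced as single cells, and groups were taken from the sample titles. Per the submitters' processing notes and the study's methods, the authors used Cell Ranger 2.0.2 on mm10, and the deposited values are raw UMI counts per gene and cell with no normalization. No annotation of cells was used, so classes were rebuilt here and may differ from those of the study for that reason alone. Cells with 1000 to 7000 genes and at most 10% mitochondrial UMIs were kept. The 2000 most variable genes, less those left out, were reduced to 10 principal components, and Leiden clusters were found at resolution 1 (scanpy 1.11.5, leidenalg 0.10.2). Left out of the clustering were the C1q genes, the surfactant genes Sftpa1, Sftpb, Sftpc and Sftpd, and the transgene PYMT. Clusters were named by marker lists. A marker counted if found in at least 25% of a cluster's cells and at 2 times the median over clusters, and at least 3 were needed. Mixed clusters, 5 of 27, were clustered again. These naming thresholds were set after the clusters were seen.

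Counts were summed per class and library and divided by total UMIs. Intervals (95%, scipy 1.17.1) are exact Poisson for levels, Clopper-Pearson for shares and conditional binomial for ratios. UMIs of a class are not independent of its cells, so the intervals understate the spread between mice, which 1 mouse per burden cannot give. The filter for ratios kept genes with at least 50 UMIs in macrophage-like cells and a UMI in at least 10% of them in either library. A gene at 0 in 1 library was set to a floor of 3 UMIs, and left out where the other library was at or under that floor. Ratio table and thinning were tested on simulated counts. Named genes were the 3 members, the 10 most like them across classes (genes with at least 500 UMIs), the 10 highest and 5 lowest by rank correlation in single cells (genes found in at least 20% of them), and listed complement, transcription factor and state genes with values. Counts cover the whole lists, and some listed genes are not reported here by name. The members and all lists were chosen with earlier results of these data known. The sequences and gene positions come from RefSeq and GENCODE M21 on GRCm38, the assembly of mm10. Alternatives covered the clustering, cell filters, doublets, scaling, thinning depth, a marker gate and single cells with the most C1q.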

Additional observations from a re-analysis of the deposited data

Results flagged for a closer look

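The summed C1q level was lower at week 3 than at week 1 in macrophage-like cells (log2 ratio -0.35) and higher in the non-myeloid classes together (log2 ratio 3.46). The same contrast therefore lay on opposite sides of 0 in these cells, each being 1 library against 1 library, and the difference between them was not tested. The sign in macrophage-like cells depended on how these cells were defined, as given in the next section, while that in the non-myeloid classes did not change under any alternative that was run.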

How the results depend on the processing

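Of 134 values recomputed under an alternative, 87 lay within the interval of the value given above (or within 1.5 times of a count), 36 moved outside it and 11 changed direction. The cause was not tested unless the construction shows it. The reversals were all of log2 ratios in macrophage-like cells, that of the C1q sum turning to 0.38 at resolution 0.5, 0.10 with the marker gate and 0.32 without the named sub-clusters of mixed clusters, a choice added after seeing the data. Per gene, C1qa turned to 0.072 at resolution 0.5 and 0.0042 without the sub-clusters, C1qb to 0.43, 0.21 and 0.44 and C1qc to 0.84, 0.38 and 0.73 at resolution 0.5, with the gate and without the sub-clusters. The first and last left 9 low-burden cells, with 8761 and 9136 CPM, and the gate gave 7701 and 8232 CPM at low and high burden. Joint detection was 100.0% of low-burden cells at resolution 0.5, 65.2% and 79.4% with the gate, 84.0% and 80.5% when thinned to 1000 UMIs, and at high burden 92.6% when thinned to 3000 UMIs and 95.5% unthinned. The log2 ratio in the other classes was 3.66 at resolution 0.5, 3.68 at resolution 2, 3.83 with all cells of the files, 3.73 with median-of-ratios scaling, 3.09 with mixed clusters and 3.91 without the top C1q cell of each class. Their level as a percent of macrophage-like cells was, at low and high burden, 0.310% and 3.01% at resolution 0.5, 0.321% and 3.49% with mixed clusters, 0.131% and 2.47% without the top cells, 0.159% and 2.51% without marked doublets, and 0.292% and 2.40% without the sub-clusters. At high burden alone it moved to 2.64% at resolution 2, 3.02% with all cells and, in an alternative added after seeing the data, 2.37% without cells at 20 or more per 10000. Of the complement genes, 8 were lower at resolution 0.5, 7 with no filter on low counts, 9 without the sub-clusters, and 1 was higher and 1 lower at a limit of 4-fold. Of the 10 genes most like C1q, 7 stayed with 1 CPM added and 9 with genes of at least 50 UMIs. The C1qa shares moved outside their intervals under no alternative. With 50 low-burden macrophage-like cells, low-burden values rest on 3073 C1q UMIs, and no difference between mice can be estimated. No paired analysis was possible because each group has 1 library.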
